A study of Mus musculus with 18 samples.

Results

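The genes described here are 9 markers of microglia, the resident macrophages of the brain: Csf1r, Cx3cr1, P2ry12, Itgam, Aif1, Trem2, Tyrobp, Ctss and Tmem119. They were followed on 18 expression arrays of mouse hypothalamus, among 19937 genes that had a probeset of their own. Each was taken from the brightest probeset that names 1 gene only, and each of the 9 had 1 such probeset. This choice of probeset used no measured difference, but the members were chosen with earlier results of these data known. The strain is written 129SV per sample and 129S6 for the series as a whole, for all groups alike. Each array carries 2 genotype labels, the ending of its title (ko or wt) and a genotype field (KO or WT) for Wfs1, which encodes wolframin, a membrane protein of the endoplasmic reticulum. The 2 labels agree on 9 arrays and contradict each other on 9, which gives 5 arrays labelled ko/KO, 5 labelled ko/WT, 4 labelled wt/KO and 4 labelled wt/WT (title ending first, field after the slash). In the order in which the samples are listed, the genotype field alternates strictly between KO and WT, while the title ending does not. Which label is right is not known. The sources used here do not describe the mutant allele or the age and sex of the mice. Numbers such as ko/KO 4 only name an array within its group. Each title also carries a number just before its ending, which is lower on every array ending in ko than on any ending in wt. What this number stands for is not stated. Differences between the title endings therefore cannot be told apart from differences along it. The same holds for ko/KO against wt/WT and for ko/WT against wt/KO. Nothing in the labels states that arrays came from separate litters or dissections, so p-values measure the spread between these arrays, which may be partly technical.

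Values are log2 intensities, so a difference of 1 is a doubling of the signal. The median of an array ran from 7.10 to 7.19 and the SD of all its values, called the array SD below, from 1.93 to 2.04. The level of Wfs1 followed neither label: it lay between 7.86 and 8.07 on 10 arrays and between 8.36 and 8.72 on the other 8. 2 arrays stand apart by other genes: Xist, the RNA of the inactive X chromosome, read 5.93 on ko/WT 4, against 10.31 to 10.79 on the other arrays, and Ttr, the transthyretin of the choroid plexus, read 12.8 on wt/WT 3, against 8.01 to 10.62.

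Microglia enter the brain early in development and renew themselves there, which depends on Csf1r, the receptor for the growth factors CSF1 and IL-34. Cx3cr1 receives fractalkine from neurons, P2ry12 senses ADP released by damaged cells and directs the processes of the cell, and Itgam (CD11b) pairs with Itgb2 to form complement receptor 3, which takes part in the removal of synapses. Aif1 (Iba1) is a calcium-binding protein of the actin skeleton and the usual stain for these cells. Trem2 is a surface receptor for lipids and apolipoproteins that signals through the adaptor Tyrobp (DAP12), which carries the activation motif. Ctss is a lysosomal cysteine protease, and Tmem119 is a surface protein that in the brain marks microglia. In the hypothalamus microglia are known to respond to diet and to inflammation.

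All 9 genes stayed within about 1 log2 unit over the series. In whole tissue, fewer microglia and less RNA per microglial cell cannot be told apart. Among the receptors, Csf1r (probeset 10456071, chromosome 18) averaged 9.01 ± 0.0944 (SD, n = 18), Cx3cr1 (probeset 10597743, chromosome 9) averaged 8.58 ± 0.0907 and P2ry12 (probeset 10498371, chromosome 3) averaged 6.74 ± 0.133. Itgam (probeset 10557862, chromosome 7) averaged 7.07 ± 0.121 and Aif1 (probeset 10450484, chromosome 17) 6.65 ± 0.146. The receptor Trem2 (probeset 10445781, chromosome 17) averaged 7.64 ± 0.112, and its adaptor Tyrobp (probeset 10551883, chromosome 7) 7.23 ± 0.161. The protease Ctss (probeset 10494271, chromosome 3) averaged 9.88 ± 0.227, and Tmem119 (probeset 10532741, chromosome 5) 7.79 ± 0.107. Probes differ in how brightly they hybridise, so these levels do not order the genes by transcript number. Aif1 and P2ry12 lay below the median of the array on all 18 arrays, Itgam on 13 and Tyrobp on 6, but no member fell below the lower quartile of any array.

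The spread of the members between arrays was that of an ordinary gene, apart from Ctss. Their SDs ran from 0.0907 to 0.227 with a median of 0.121, beside a median of 0.133 over all genes. Ctss ranged over 1.03 log2 units, with 9.45 on wt/WT 1, a median of 9.885 and 10.48 on ko/KO 4, and 92.4% of all genes had a lower SD. Cx3cr1, the fractalkine receptor, was the steadiest of the 9, with a range of 0.35 and 15.1% of all genes below its SD. Aif1 ranged over 0.62, Tyrobp over 0.60, Trem2 over 0.53, P2ry12 over 0.51, Itgam over 0.43, Tmem119 over 0.39 and Csf1r over 0.38, while the median gene ranged over 0.50.

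High and low values gathered on a few arrays. On ko/KO 4 the values of Csf1r, Cx3cr1, Aif1 and Ctss were each the highest of the 18, 6 members were among their 3 highest and 8 of 9 lay above their own median. At the other end, 5 members were among their 3 lowest on ko/WT 4 and 5 on wt/WT 2, and only 1 of 9 lay above its median on ko/WT 4 and on wt/WT 1. The array wt/WT 2 had the lowest Csf1r, P2ry12 and Tmem119 of the series (8.80, 6.48 and 7.57) together with the highest Trem2 (7.90). It also had the lowest array SD (1.93), and ko/WT 4 is the array with low Xist. Whether extremes of other genes gather on the same arrays was not counted.

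**Figure D1:**
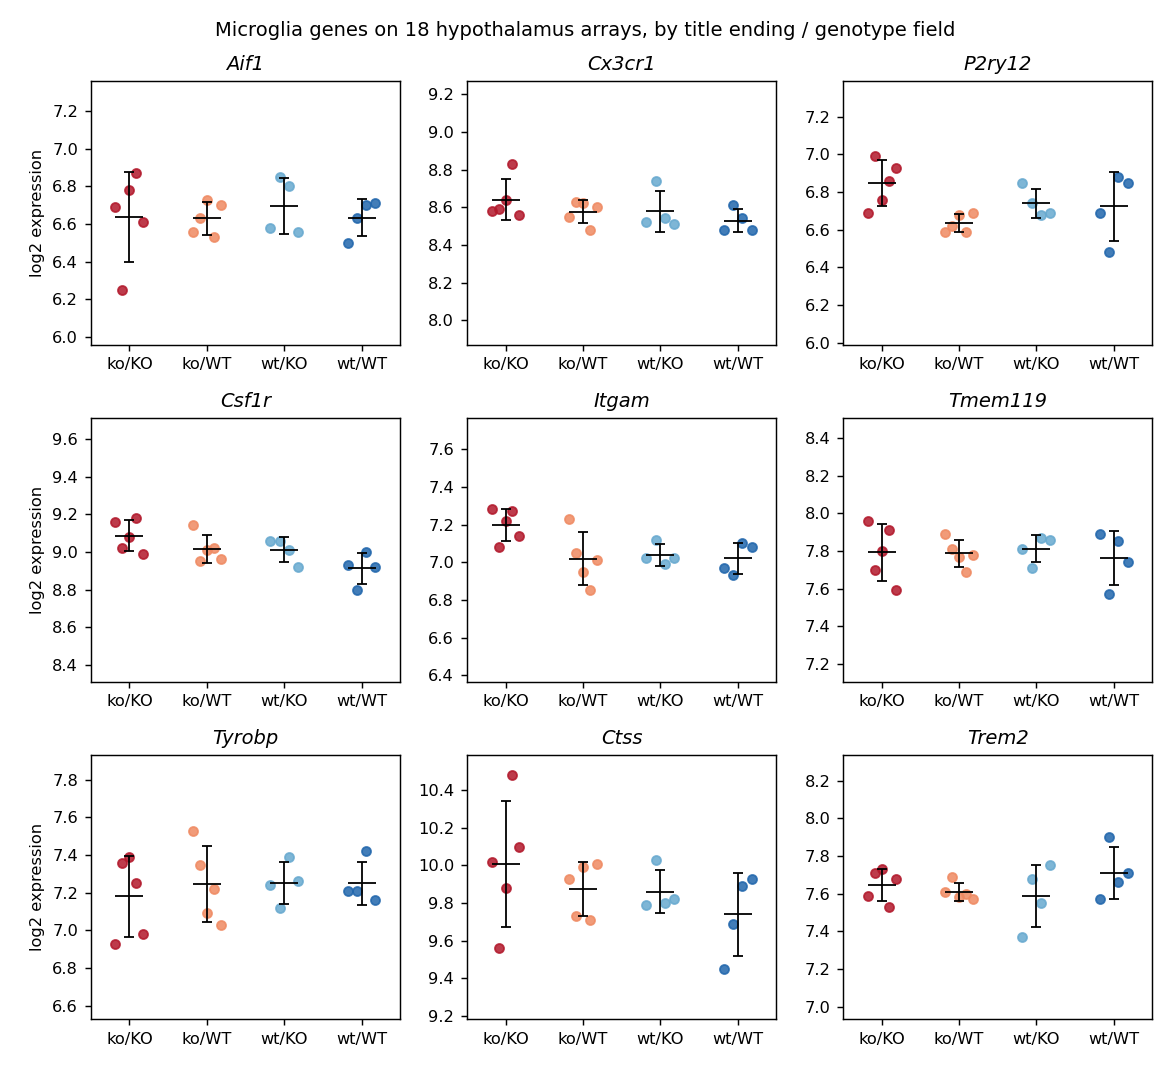
Log2 intensity of each of the 9 microglia genes on every array, 1 panel per gene; points are arrays in the groups ko/KO (n = 5), ko/WT (n = 5), wt/KO (n = 4) and wt/WT (n = 4), and bars give the group mean and SD. The groups overlap in every panel, and Ctss spans the widest range, up to 10.48 on ko/KO 4.

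The series was made to compare Wfs1 mutant with wild-type hypothalamus. Since the labels conflict, the comparison was made by title ending, by genotype field, between the arrays whose labels agree (ko/KO minus wt/WT) and between those whose labels contradict each other (ko/WT minus wt/KO); these 4 comparisons share arrays. The last of them runs in the direction of the title ending, so a positive value there means higher in arrays with WT in the field. No microglia gene passed the test in any of them, with limma across all genes and Benjamini-Hochberg adjusted p under 0.05. No other gene did either: 0% of the 19937 genes were called by title ending, 0% by genotype field, 0% where labels agree and 0% where they contradict. At an unadjusted p under 0.05, 0 of 9 members and 4.63% of all genes passed by title ending, 1 of 9 and 6.95% by genotype field, 2 of 9 and 11.1% where labels agree, and 0 of 9 and 2.74% where they contradict. For no member did the group ranges separate in any of the 4 comparisons, and 33 of the 36 intervals (95%) of the difference included 0. The share of all genes with separate ranges was not counted, so this overlap does not set the members apart. The widest interval was that of Ctss where labels agree, -0.061 to 0.60 log2 units, and the lowest bound of any member was that of Tyrobp in the same comparison, -0.30.

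The median difference of the 9 members was 0.0075 by title ending (6 higher, 3 lower), 0.058 by genotype field (7 higher, 2 lower), 0.11 where labels agree (7 higher, 2 lower) and -0.0085 where they contradict (3 higher, 6 lower). Over all genes these medians were 0.003, -0.0056, -0.0015 and 0.0055 in the same order of comparisons. The test of whether the difference by title ending itself depends on the genotype field called 0% of all genes, with 5.18% at an unadjusted p under 0.05, and the lowest adjusted p of any gene was 0.927.

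The survival receptor Csf1r read 9.16, 9.02, 9.08, 9.18 and 8.99 on the 5 ko/KO arrays, against 8.93, 8.80, 9.0 and 8.92 on the 4 wt/WT arrays. Most ko/KO arrays were above all wt/WT arrays, and the ranges met only at 8.99 and 9.0. The means were 9.09 ± 0.0835 (SD, n = 5) in ko/KO and 8.91 ± 0.083 (SD, n = 4) in wt/WT, a difference of 0.17 ± 0.076 (SE) with an unadjusted p of 0.038 and an adjusted p of 0.431 by limma. Where the labels contradict, Csf1r read 9.14, 8.95, 9.01, 9.02 and 8.96 on ko/WT arrays and 9.06, 9.06, 9.01 and 8.92 on wt/KO arrays. There the 2 groups covered nearly the same range, and the difference was 0.0035. By title ending over all 18 arrays it was 0.089 ± 0.046 (SE), and by genotype field 0.083. Csf1r varied with the array SD (r = 0.610). With the array SD as a covariate, an alternative chosen after seeing the data, its difference where labels agree was 0.12.

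Neither of the other receptors passed the adjusted threshold. Cx3cr1 differed by 0.11 where labels agree, by 0.056 by title ending, by 0.058 by genotype field and by -0.0015 where labels contradict. The ADP receptor P2ry12 read 6.69, 6.99, 6.76, 6.86 and 6.93 on ko/KO arrays, and 6.85, 6.74, 6.68 and 6.69 on wt/KO arrays. On the arrays with WT in the field it read 6.59, 6.62, 6.68, 6.59 and 6.69 (ko/WT) and 6.69, 6.48, 6.88 and 6.85 (wt/WT). The ko/WT arrays were low and closely grouped, while wt/WT held both the lowest value and 2 of the higher ones. By genotype field P2ry12 averaged 6.80 ± 0.113 in KO and 6.67 ± 0.127 in WT (SD, n = 9 each), a difference of 0.12 (95% interval 0.0055 to 0.24) with an unadjusted p of 0.041 and an adjusted p of 0.694 by limma. Where labels contradict, the ko/WT minus wt/KO difference was -0.11 ± 0.057 (SE), again higher with KO in the field, with an adjusted p of 0.9998.

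Itgam, the alpha chain of complement receptor 3, read 7.28, 7.08, 7.22, 7.27 and 7.14 on ko/KO arrays, against 6.97, 6.93, 7.10 and 7.08 on wt/WT arrays. The 2 upper wt/WT values reached the lowest ko/KO value, and the other 2 lay below all ko/KO arrays. The means were 7.20 ± 0.0861 (SD, n = 5) in ko/KO and 7.02 ± 0.0829 (SD, n = 4) in wt/WT, and the difference of 0.18 ± 0.076 (SE) had an unadjusted p of 0.035 and an adjusted p of 0.429 by limma. Itgam differed by 0.11 by genotype field, by 0.079 by title ending and by -0.020 where labels contradict. Aif1, the common stain for microglia, differed by 0.005 where labels agree, by 0.033 by genotype field, by -0.031 by title ending and by -0.068 where labels contradict, and the lowest ko/KO value, 6.25 on ko/KO 2, was also the lowest of all 18.

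Trem2 and Tyrobp, receptor and adaptor of 1 signalling unit, had small differences by every label, negative in 3 of the 4 comparisons for Trem2 and in all 4 for Tyrobp. Trem2 differed by -0.020 by title ending, by -0.033 by genotype field, by -0.062 where labels agree and by 0.023 where they contradict. Tyrobp differed by -0.038, -0.033, -0.068 and -0.0085 in the same order. These values are within the spread between arrays. Tmem119 differed by 0.0025 by title ending, 0.024 by genotype field, 0.030 where labels agree and -0.025 where they contradict.

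The protease Ctss had the widest spread and, except where labels contradict, the widest difference of the 9. It read 10.02, 9.56, 9.88, 10.48 and 10.10 on ko/KO arrays, against 9.45, 9.69, 9.89 and 9.93 on wt/WT arrays. The ko/KO group held the highest value of the series as well as one of the lowest. The difference where labels agree was 0.27 ± 0.15 (SE), with means of 10.01 ± 0.335 (SD, n = 5) in ko/KO and 9.74 ± 0.22 (SD, n = 4) in wt/WT and an adjusted p of 0.510 by limma. It was 0.14 by title ending, 0.13 by genotype field and 0.014 where labels contradict. These values rest in part on 2 arrays. Without ko/KO 4 the difference was 0.15 where labels agree, 0.081 by title ending and 0.061 by genotype field, and without wt/WT 1 it was 0.17, 0.091 and 0.082 in the same order. Ctss varied with the array SD (r = 0.654), and with the array SD as a covariate, an alternative chosen after seeing the data, its difference where labels agree was 0.040 and that of Itgam 0.10.

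**Figure D2:**
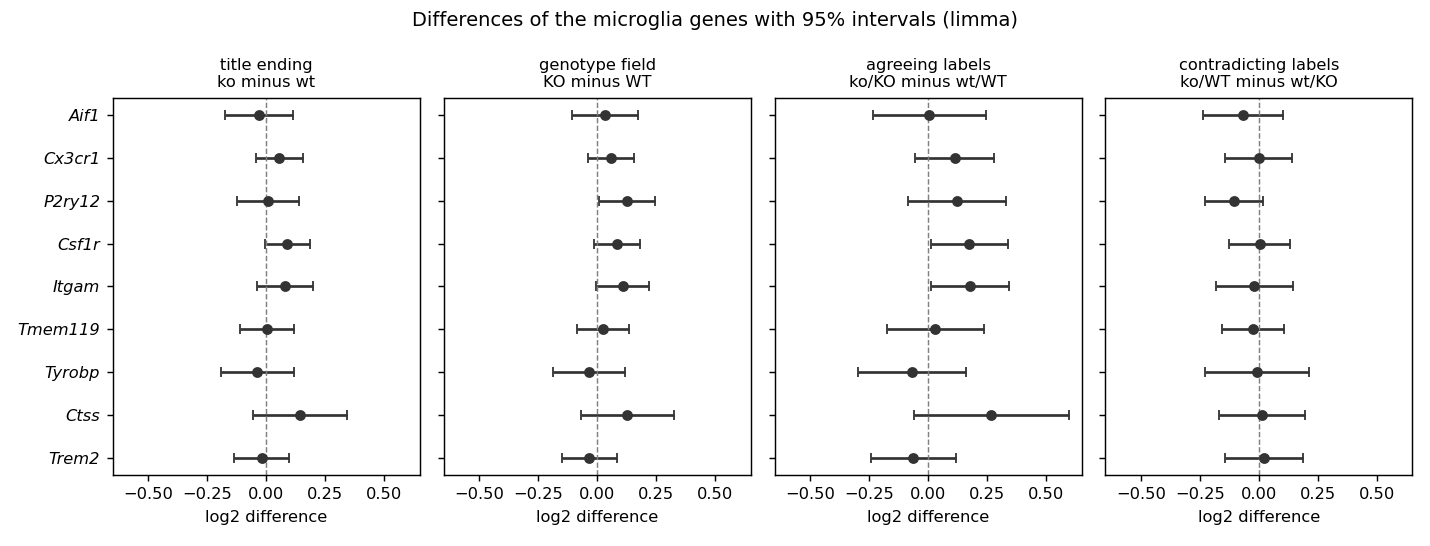
Difference in log2 intensity of each microglia gene in the 4 comparisons by label, 1 panel each; points are the limma estimates and lines their 95% intervals, with 0 marked. 33 of the 36 intervals include 0, the exceptions being P2ry12 by genotype field and Csf1r and Itgam where labels agree.

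The question of whether the 9 genes vary together from array to array was examined over all 36 pairs, across the 18 arrays. Only part of the set had a positive r throughout: Itgam, Ctss, Csf1r, Cx3cr1, Aif1 and Tmem119 did with each other (from 0.0282 for Cx3cr1 with Tmem119 to 0.712), while P2ry12, Tyrobp and Trem2 had the lowest median correlations with the rest. Of the 36 pairs 24 had a positive r and 12 a negative one, with a median of 0.132, beside a median of -0.0034 between the members and all other genes. In a permutation test of r with 100000 resamples, 10 pairs had an unadjusted p under 0.05 and 2 passed after Benjamini-Hochberg adjustment over the 36; with Spearman's rho 6 pairs had an unadjusted p under 0.05 and 0 passed.

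Csf1r and Itgam formed the strongest pair (r = 0.712, permutation p = 0.00086, adjusted p = 0.0310; rho = 0.604, adjusted p = 0.114). Without wt/WT 2 and ko/KO 4, the arrays farthest from the median of Csf1r, r was 0.615. Of the 19936 other genes, Csf1r ranked 6 by its correlation with Itgam, and Itgam ranked 65 by its correlation with Csf1r. The second pair was Aif1 and Ctss (r = 0.694, permutation p = 0.00249, adjusted p = 0.0448; rho = 0.626, adjusted p = 0.114). Without ko/KO 2 and ko/KO 4 its r was 0.539. Ctss ranked 56 among all genes by its correlation with Aif1, and Aif1 ranked 354 by its correlation with Ctss. Both calls stand close to the threshold: leaving out any 1 of 7 arrays (ko/KO 1 or 4, ko/WT 1 or 5, wt/KO 2, wt/WT 1 or 2) ended that of Csf1r and Itgam, and any 1 of 11 that of Aif1 and Ctss (ko/KO 1 or 4, ko/WT 1, 4 or 5, wt/KO 1, 2 or 4, wt/WT 1, 2 or 3), with adjusted p between 0.05004 and 0.107 for each pair, while r stayed at or above 0.649 and 0.640 in those cases.

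Ctss also varied with Itgam (r = 0.602, permutation p = 0.00778, adjusted p = 0.0700) and with Cx3cr1 (r = 0.645, permutation p = 0.00563, adjusted p = 0.0676). The correlation with Itgam was 0.596 without the 2 arrays farthest from the median of Itgam. The correlation with Cx3cr1 rests on ko/KO 4 and wt/KO 2, which had the 2 highest Cx3cr1 values (8.83 and 8.74): without them r was 0.246. On the deposited values neither pair passed the adjusted threshold over all 18 arrays. With median centring both passed (permutation adjusted p = 0.0134 for Itgam and 0.0125 for Cx3cr1). With quantile normalization Itgam passed (0.0295) and Cx3cr1 did not (0.120). With the array SD removed neither passed (0.249 for Itgam and 0.0763 for Cx3cr1).

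Trem2 had the lowest correlations of the set, none of which passed the adjusted threshold on the deposited values. With median centring the correlation with Csf1r passed (r = -0.594, permutation adjusted p = 0.0469). On the deposited values the r of Trem2 was -0.557 with Csf1r (permutation p = 0.0170, adjusted p = 0.0969) and -0.517 with Tmem119 (permutation p = 0.0276, adjusted p = 0.110). Both weakened without the 2 arrays farthest from the median of the partner, wt/WT 2 among them, to -0.260 and -0.277. With its own adaptor Tyrobp, Trem2 had r = 0.0748 (permutation p = 0.773, adjusted p = 0.916), and the sign of this value turned under 3 other scalings of the arrays. The median r of a member with the other 8 was 0.401 for Itgam, 0.397 for Ctss, 0.346 for Csf1r, 0.257 for Cx3cr1, 0.234 for Aif1, 0.189 for Tmem119, 0.0362 for P2ry12, -0.0033 for Tyrobp and -0.160 for Trem2.

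The array SD moved with several of these genes. Its r was 0.654 with Ctss, 0.610 with Csf1r, 0.532 with Aif1, 0.370 with Itgam, 0.330 with Tmem119, 0.285 with P2ry12, 0.257 with Cx3cr1 and -0.171 with Tyrobp, but -0.658 with Trem2, which in turn had r = 0.772 with the array median. For the mean of the 9 members the r with the array SD was 0.532. When each gene was taken as its residual from a straight line on the array SD, Csf1r and Itgam had r = 0.660 (permutation adjusted p = 0.0763), Aif1 and Ctss r = 0.540 (adjusted p = 0.237), Cx3cr1 and Ctss r = 0.653 (adjusted p = 0.0763) and Csf1r and Trem2 r = -0.261, and 0 pairs passed. Beyond these values, its part in the result was not tested.

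**Figure D3:**
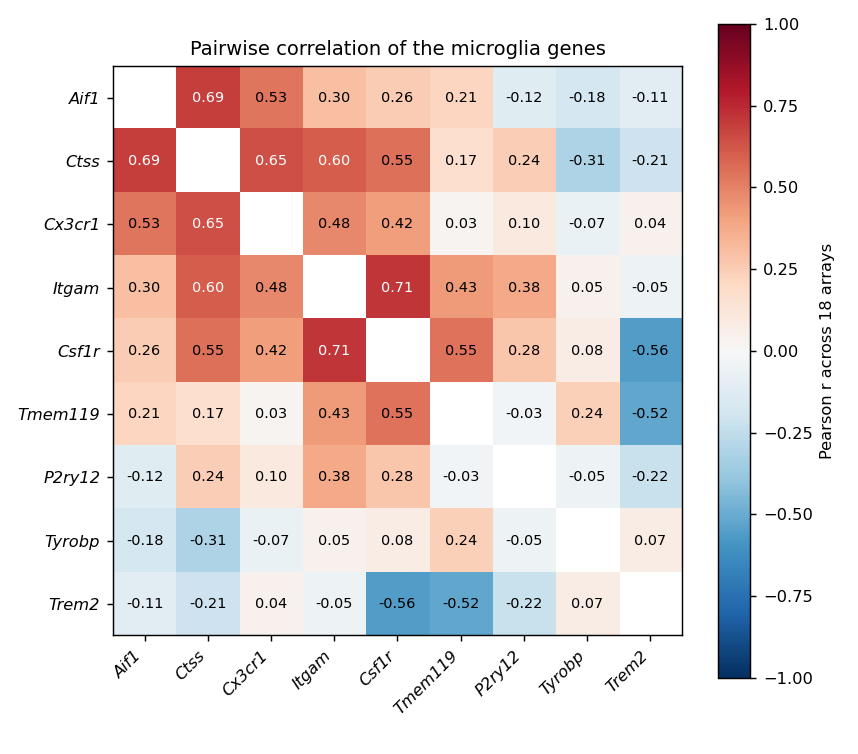
Pearson r between each pair of the 9 microglia genes over 18 arrays, on a colour scale from negative to positive. The highest cells are Csf1r with Itgam (0.712) and Aif1 with Ctss (0.694), and the lowest is Csf1r with Trem2 (-0.557).

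Microglial genes are known to be driven by PU.1 (Spi1), an Ets factor whose sites often hold GAGGAA, called the core here. Promoter sequence was at hand for 6 of the 9 members (RefSeq, assembly GRCm38.p6). The core was searched in the 250 bases before the start of transcription, as GAGGAA or, on the opposite strand, TTCCTC. It was present in 4 of the 6 promoters (Ctss, Itgam, Aif1 and Trem2) and absent in those of Cx3cr1 and P2ry12, beside 7639 of 32851 mouse promoters (23.3%) of the same length. The pattern TGANTCA is a loose form of the AP-1 element, with any base in the middle. On either strand it was present in 1 of the 6, that of Trem2 (as TGAATCA), beside 6.75% of all promoters. It does not overlap the core there. A match of letters is a description and not a binding site. Other forms of the PU.1 site were not searched, so absence refers to these 6 letters only. The core is in capitals in the sequences below. The 180 bases before the start are shown for Aif1, Ctss and Itgam, members of the 2 pairs that passed on the deposited values. Those of Cx3cr1 and Trem2, of which no pair passed on these values, are also shown. They lie at chr3:95526606-95526785 on the plus strand for Ctss, chr17:35176053-35176232 on the minus strand for Aif1, chr7:128062460-128062639 on the plus strand for Itgam, chr9:120068297-120068476 on the minus strand for Cx3cr1 and chr17:48346221-48346400 on the plus strand for Trem2.
Ctss: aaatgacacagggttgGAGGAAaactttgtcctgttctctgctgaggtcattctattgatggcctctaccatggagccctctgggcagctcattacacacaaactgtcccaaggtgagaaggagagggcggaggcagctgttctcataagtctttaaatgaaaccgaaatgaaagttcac
Aif1: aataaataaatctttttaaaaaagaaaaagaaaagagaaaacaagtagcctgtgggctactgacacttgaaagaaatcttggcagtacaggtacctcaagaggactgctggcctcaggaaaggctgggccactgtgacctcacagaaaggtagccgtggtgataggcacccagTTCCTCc
Itgam: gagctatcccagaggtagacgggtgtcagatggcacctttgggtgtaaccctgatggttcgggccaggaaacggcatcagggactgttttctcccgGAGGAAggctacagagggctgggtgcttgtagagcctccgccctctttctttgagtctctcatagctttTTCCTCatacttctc
Cx3cr1: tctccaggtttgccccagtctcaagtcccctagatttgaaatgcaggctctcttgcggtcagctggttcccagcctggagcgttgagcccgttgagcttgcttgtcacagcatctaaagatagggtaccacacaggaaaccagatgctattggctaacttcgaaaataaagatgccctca
Trem2: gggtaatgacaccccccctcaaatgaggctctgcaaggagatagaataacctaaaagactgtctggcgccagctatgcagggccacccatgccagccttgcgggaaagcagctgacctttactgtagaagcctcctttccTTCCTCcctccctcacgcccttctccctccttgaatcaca
Itgam holds 2 matches, 1 on each strand, and Ctss, Aif1 and Trem2 hold 1 each, with its first base 164, 7 and 40 bases before the start. The core thus occurs in Trem2 as well as in Itgam, Aif1 and Ctss, and it is not among these letters in Cx3cr1. Csf1r, the other gene of the pairs that passed, was not among the 6 promoters searched.

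The relation of the microglia genes to the Wfs1 level was examined separately on the 10 arrays below 8.2 log2 units of Wfs1 and the 8 arrays above, because Wfs1 falls into 2 separate clusters there. These are not groups of the study and were not tested against each other. No member had separate ranges on the 2 sides, and the share of all genes that did was not counted. Csf1r ran from 8.80 to 9.18 below, with a median of 9.005, and from 8.92 to 9.16 above, with a median of 9.015. Ctss ran from 9.45 to 10.48 below (median 9.91) and from 9.56 to 10.02 above (median 9.84). Trem2 ran from 7.37 to 7.90 below (median 7.635) and from 7.55 to 7.73 above (median 7.645). The medians of the 2 sides thus lay close together beside the range on either side.

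Within the sides, none of the 18 correlations with Wfs1 passed the adjusted threshold; 0 had an unadjusted p under 0.05 by r and 2 by rho, and the lowest adjusted p of r was 0.634. The r values ran from -0.603 to 0.520. On the 10 arrays with low Wfs1, P2ry12 had r = -0.603 (permutation p = 0.0681) and rho = -0.695 (permutation p = 0.0295, adjusted p = 0.271), but r was -0.233 without the 2 arrays farthest from the Wfs1 median. Itgam had r = -0.599 (permutation p = 0.0704) and rho = -0.692 (permutation p = 0.0301, adjusted p = 0.271) there, and r = -0.721 without the 2 arrays. On the 8 arrays with high Wfs1 P2ry12 had r = 0.204 (exact permutation p = 0.636) and rho = -0.0241, and Itgam r = 0.352 (exact permutation p = 0.392) and rho = 0.259. Without the 2 farthest arrays both r turned negative, to -0.393 and -0.177. Csf1r had r = 0.520 above (exact permutation p = 0.189), which was 0.0141 without the 2 farthest arrays, and r = -0.290 below (permutation p = 0.417). Tmem119 had r = 0.482 above (exact permutation p = 0.229) and 0.221 below (permutation p = 0.538).

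**Figure D4:**
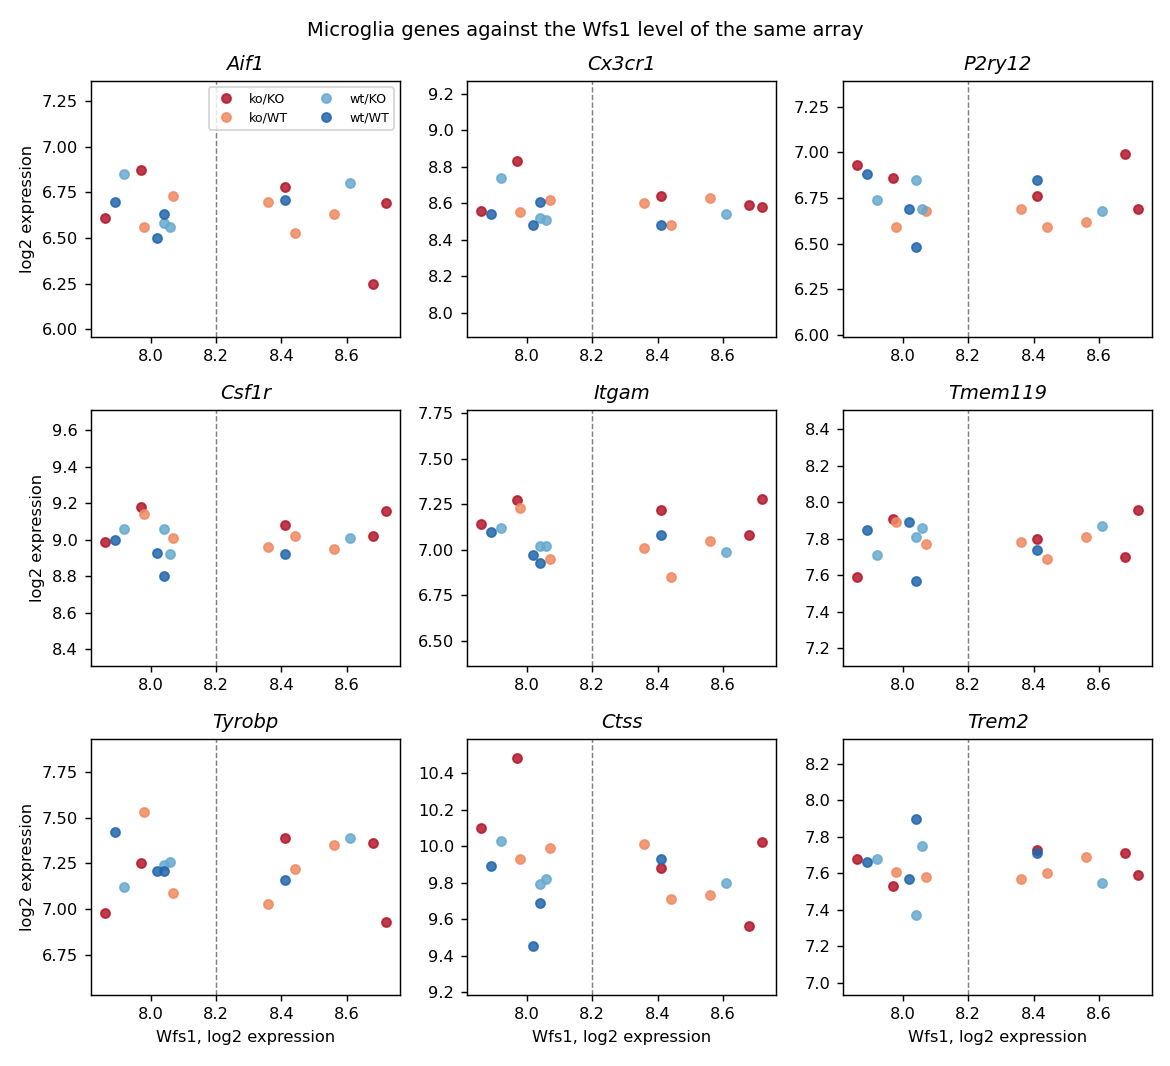
Log2 intensity of each microglia gene (vertical axis) against that of Wfs1 (horizontal axis) on the 18 arrays, 1 panel per gene; the dashed line marks 8.2. The 10 arrays left of the line and the 8 right of it cover overlapping levels of every microglia gene.

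Further microglia genes varied with the 9 in part, with a median r below that of the astrocyte markers (0.314). Of 40 other microglia genes 37 were measured, and their mean had r = 0.720 with the mean of the 9 members; 25 of the 37 had a positive r of their own, with a median of 0.247, beside a median of 0.0064 and 50.8% positive over all genes. The highest was C1qc, a chain of the complement component C1q (r = 0.733), and the lowest Fcrls, a scavenger receptor of microglia (r = -0.435). Of the ligands and signalling partners 22 of 23 were measured and 16 were positive (median 0.177), led by Cst3, the inhibitor of cathepsins (r = 0.641). Of the activated microglia genes 25 of 26 were measured and 16 were positive (median 0.0995), led by the lysosomal protease Ctsb (r = 0.672). These correlations share the 18 arrays and are descriptions without a test. The mean of the 9 members also had r = 0.532 with the array SD, whose part here was not tested. No background was computed for an r between list means.

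Markers of other brain cells moved with the 9 genes as well. Of the astrocyte markers 14 of 15 were positive (median 0.314), and their mean had r = 0.531 with that of the members, with Slc1a3, a glutamate transporter, at 0.659. Of the oligodendrocyte markers 13 of 16 were positive (median 0.233), of the neuronal markers 12 of 14 (median 0.172) and of the endothelial and mural markers 10 of 13 (median 0.137). The markers of perivascular macrophages, which sit along vessels, had 7 of 10 positive with a median of 0.125, and their mean had r = 0.0359. The blood markers had 4 of 11 positive, with a median of -0.105. The mean of the astrocyte markers ran from 10.27 to 10.53 on ko/KO arrays and from 10.28 to 10.46 on wt/WT arrays, that of the oligodendrocyte markers from 9.47 to 9.77 and from 9.28 to 9.74, and that of the perivascular markers from 6.10 to 6.18 and from 6.09 to 6.26 in the same order. By title ending and where labels agree, all 16 oligodendrocyte markers had a positive difference (medians 0.07 and 0.0895), and where labels agree so did all 14 neuronal markers (median 0.053), 12 of 15 astrocyte markers (0.051) and 9 of 13 endothelial and mural markers (0.036). In that comparison 3 of 10 perivascular and 2 of 11 blood markers were positive, and no marker passed the test. Over all genes, 51.8% had a positive difference by title ending and 49.5% where labels agree. The lists also differ in brightness. The median of the list mean over the arrays was 11.07 for neuronal, 10.45 for astrocyte and 9.56 for oligodendrocyte markers. It was 8.28 for endothelial and mural, 6.145 for perivascular and 6.12 for blood markers. The part of brightness and of the array SD in the markers' differences was not tested. The part of these cells in the members' covariation and differences was not tested.

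**Figure D5:**
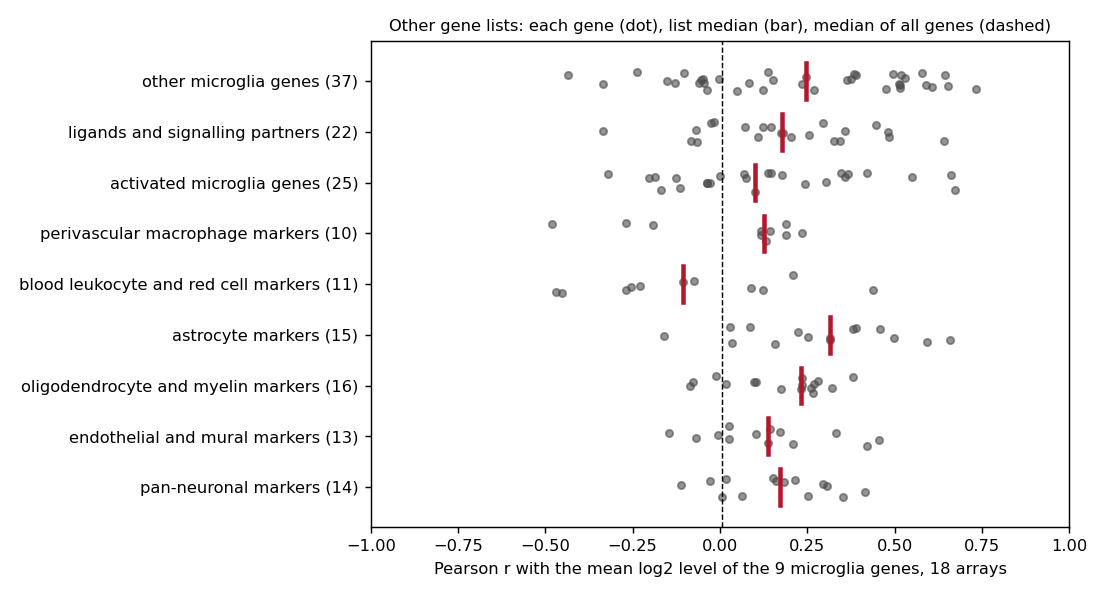
Pearson r of each gene with the mean of the 9 microglia genes over 18 arrays, by gene list; points are genes, the red bar is the median of the list and the dashed line the median of all genes (0.0064). The other microglia genes (median 0.247), the astrocyte markers (0.314) and the oligodendrocyte markers (0.233) lie mostly above the line, and the blood markers (-0.105) mostly below.

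By label, no gene of these lists passed the test in any of the 4 comparisons (limma, adjusted p under 0.05). Of the 37 other microglia genes 17 were higher and 20 lower by title ending, 23 and 14 by genotype field, 22 and 15 where labels agree, and 11 and 26 where they contradict, with medians of -0.003, 0.027, 0.028 and -0.047 and with 1, 7, 6 and 1 of the 37 at an unadjusted p under 0.05, where 4.63%, 6.95%, 11.1% and 2.74% of all genes passed. Those with the smallest p by title ending were Cd68, a lysosomal glycoprotein of phagocytes (0.14 ± 0.065, SE), and C1qc (0.11 ± 0.066, SE), both with an adjusted p of 0.884. Among the activated genes they were H2-Aa and Cd74, an MHC class II chain and the invariant chain that accompanies it, at 0.15 and 0.17. The 2 differed by 0.25 and 0.24 where labels contradict, with an adjusted p of 0.9998, and by -0.10 and -0.062 by genotype field; both pairs of values are lower with KO in the field. Among the partners they were Syk, the kinase downstream of Tyrobp, at -0.11, and Pik3cg, a phosphoinositide kinase, at 0.11. The markers named by the same rule were Ms4a7 (0.12) and F13a1 (0.094) for perivascular macrophages, Lyz2 (0.19) and S100a9 (-0.12) for blood, Gjb6 (0.13) and Slc4a4 (0.091) for astrocytes, Gpr37 (0.16) and Fa2h (0.11) for oligodendrocytes, Slco1a4 (0.14) and Vtn (0.15) for vessels, and Nefm (0.15) and Nefh (0.11) for neurons, each as a log2 difference by title ending with an adjusted p of at least 0.884.

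Ranked were 9714 genes at or above the median level, with predicted genes and the 9 members left out. Those most like the mean of the 9 members over the 18 arrays were Hax1, a mitochondrial protein (r = 0.834), C1qc (0.733), the translation factor subunit Eif2b2 (0.695), the aquaporin Aqp11 (0.695), Pccb, a subunit of propionyl-CoA carboxylase (0.692), the tetraspanin Tspan3 (0.688), the splicing factor Phf5a (0.678), Ctsb (0.672), the deubiquitinase Otud5 (0.672) and Lgals3bp, a secreted galectin-binding protein (0.671). Of these 10, 1 was on the list of other microglia genes. The 2 genes most like each single member had r between 0.686 and 0.885; 0 of these 18 were members or other microglia genes, of which only 5 of 9 and 14 of 37 were bright enough to be ranked. They were Uap1l1 (0.885) and Pid1 for Csf1r, Pdk1 (0.743) and Scarna17 for Cx3cr1, Fbxo6 (0.687) and Klf5 for P2ry12, Klf3 (0.741) and Hax1 (0.721) for Itgam, and Ero1a (0.817) and Mrpl19 for Aif1. For Trem2 they were Nckap5l (0.804) and Crybg1, for Tyrobp Pmm1 (0.879) and Mpdu1, for Ctss Pank2 (0.856) and Spcs2, and for Tmem119 the tetraspanin Cd81 (0.832) and Igdcc4.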

How the data were processed

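Total RNA of dissected, frozen hypothalami was extracted with Trizol and labelled for whole-transcript arrays, per the labels' protocols. The authors deposited log2 values, 1 per probeset and array; the scale was read from the values (1.11 to 14.54). RMA and MAS5 are named, per the submitters' processing notes, with no role or version. Normalization between arrays, where it was applied, removes most differences in total signal. Small differences of dim probes may be compressed on such arrays. Depth has no meaning here, and the number of arrays limits the precision. Scanner files and scan batches were not analysed here.

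Of 34760 probesets 21640 carried 1 symbol in the platform annotation, 1321 several and 11799 none; 21553 matched RefSeq (GRCm38.p6). The brightest single-symbol probeset stood for a gene, which left 19937 genes; 2 probesets that Itgam shares with Rpl35 were not used. Differences were fitted on all genes with limma 3.58.1 (R 4.3.3), without covariates, at a Benjamini-Hochberg adjusted p of 0.05. Correlations used two-sided permutation tests with 100000 resamples, or exact ones for the 8 arrays above 8.2 of Wfs1 (Python 3.11.15, scipy 1.17.1). Named by rule were the 9 members, Wfs1, the 2 genes of each list with the smallest p by title ending, the 10 genes most like the members' mean and the 2 most like each member, among genes at or above the median level and without predicted genes. The leading genes C1qc, Fcrls, Cst3, Ctsb and Slc1a3 of the lists, and Xist and Ttr, were named after their values were seen. The members and lists were chosen with earlier results of these data known. Alternatives were quantile normalization, median centring, the mean of probesets, leaving out the dimmest 40% of genes, limma with a trend, the other label as a covariate, each array left out and, added after seeing the data, the array SD.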

Additional observations from a re-analysis of the deposited data

Results flagged for a closer look

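In 5 cases 1 array lay far from the others of its group, by a comparison of its gap with the range of the group. Of 72 groups examined, many of which share arrays, about 3.6 would show this by chance. Aif1 read 6.25 on ko/KO 2, while the other arrays with KO in the field read 6.56 to 6.87. Cx3cr1 read 8.83 on ko/KO 4, while the other arrays ending in ko read 8.48 to 8.64. On wt/KO 2 both Cx3cr1 and Ctss were high, at 8.74 and 10.03, while the other wt/KO arrays read 8.51 to 8.54 and 9.79 to 9.82. Trem2 read 7.90 on wt/WT 2, while the other arrays with WT in the field read 7.57 to 7.71.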

How the results depend on the processing

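The count of genes called stayed at 0 in the 4 comparisons and the interaction under every setting run. Of 222 values under other processing 211 kept their direction and of 486 with 1 array left out 449 did; no difference passed the threshold, with a lowest adjusted p of 0.424 and 0.144. With the array SD as a covariate the sign turned by title ending for P2ry12 (-0.0070), Tmem119 (-0.011) and Trem2 (0.0083), by genotype field for Aif1 (-0.019) and Trem2 (0.016), where labels agree for Aif1 (-0.14) and Tmem119 (-0.037), and where they contradict for Cx3cr1 (0.011) and Trem2 (-0.026). It also turned for Tmem119 by title ending with quantile normalization (-0.0024), for Csf1r where labels contradict with median centring (-0.003), for Csf1r with Wfs1 below 8.2 with median centring (r = 0.022), and for Tyrobp with Trem2 with quantile normalization (r = -0.055), median centring (-0.10) and the array SD removed (-0.051). The cause was not tested. With 1 array left out, signs turned by title ending for Aif1 (-0.057 to 0.012; without ko/KO 2), P2ry12 (-0.029 to 0.029), Tmem119 (-0.029 to 0.025) and Trem2 (-0.060 to 0.016; without wt/WT 2). By genotype field they turned for Tmem119 (-0.0014 to 0.051; without wt/WT 2) and Tyrobp (-0.060 to 0.0021; without ko/KO 1 or ko/WT 1). Where labels agree they turned for Aif1 (-0.0525 to 0.1025), Tmem119 (-0.035 to 0.08) and Trem2 (-0.11 to 0.0013), and where they contradict for Cx3cr1 (-0.024 to 0.053), Csf1r (-0.0275 to 0.02), Itgam (-0.0725 to 0.0225), Tyrobp (-0.08 to 0.045), Ctss (-0.02 to 0.071) and Trem2 (-0.05 to 0.077). The r with Wfs1 turned for Tmem119 below (-0.160 to 0.497; without ko/KO 5), P2ry12 above (-0.294 to 0.369; without ko/KO 2) and Itgam above (-0.0234 to 0.600; without ko/KO 1). The 2 member pairs past the threshold became 9 with median centring, 3 with quantile normalization, 0 with the array SD removed and 0 to 5 with 1 array left out, while the median r of the pairs stayed between 0.0952 and 0.235. Leaving out the dimmest 40% of genes removed Aif1, P2ry12 and Itgam, which gives no value for them. No paired analysis was possible because the labels give no replicate numbers that the groups share.

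Dim probes respond less to a change in transcript, which limits Aif1, P2ry12, Itgam and Tyrobp, as they lie near or below the array median. The conflict between the 2 genotype labels limits every comparison by label.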
